A study of Mus musculus with 3 samples.

Results

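Commd8, Ubfd1, Vps29, Tbc1d14, Col6a4 and Nup214 are 6 protein-coding genes of the mouse with a promoter peak in both lists of DNA sequenced after capture of the long non-coding RNA Pvt1, one list for each set of capture probes. They were chosen from the peak lists themselves: a peak of the odd-probe list and a peak of the even-probe list each had to overlap, by at least 1 bp, the 2000 bp upstream of the annotated gene start (GENCODE mouse release 21, GRCm38/mm10). In all, 12 of 21938 protein-coding genes met that rule (0.0547%), and the 6 genes are among those 12. A promoter peak of the odd list was present at 0.0912% of protein-coding genes, and one of the even list at 0.114%. Among all 55413 annotated genes 29 met the rule with both lists (0.0523%). Because peaks chose the genes, the presence, position and height of these peaks are given as descriptions, without a test. Whether a peak marks DNA bound with Pvt1 was not tested. Most peaks of both lists, those of the 6 genes included, share sequence runs at 1 edge. Most also share a fixed relation of length to pileup, which held exactly at 4 of the 6 genes in each list. The values are given below.

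The cells were C2C12, an established mouse myoblast line, grown in proliferation medium. Cells of every sample were fixed with 1% glutaraldehyde for 15 min. One sample was precipitated with odd probes and one with even probes, each a set of 9 biotinylated DNA oligonucleotides of 20 bases against Pvt1, and the remaining sample was unprecipitated DNA, which served as background for peak calling and was fragmented to a mean of 400 bp, against 50 to 130 bp in the precipitated samples. Each probe set was thus represented by 1 library. The sample titles give both precipitated libraries the same biological replicate number, while the series describes separate biological samples, so a difference between probe sets and a difference between cultures cannot be told apart. No control probes against another RNA and no RNA levels were analysed here.

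Pvt1 is a long non-coding RNA made from a gene that neighbours the Myc oncogene. In chromatin isolation by RNA purification, fixed chromatin is sheared, an RNA is pulled down with complementary oligonucleotides, and the DNA that comes with it is sequenced. Splitting the oligonucleotides into independent sets is the usual way to separate sites that depend on the RNA from sites that depend on the oligonucleotides. A promoter is the stretch around and upstream of a transcription start. Many mammalian promoters are shared by genes that run in opposite directions, so that one stretch of DNA lies upstream of both.

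Depth bears on every value below. The odd library had 1310893 tags, of which 14203 (1.08%) stayed after the peak caller kept 1 tag per position, and the even library had 1352067, of which 12715 (0.940%) stayed. In the unprecipitated library 5104779 of 5375267 stayed. A pileup is the number of kept tags, extended to 147 bp, that cover the highest point of a peak. It therefore counts tags at distinct positions, and how many reads stood behind each position is not given in the lists. Median pileup was 4 in both lists, which held 962 (odd) and 714 (even) peaks.

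The first bases inside 1 edge of each peak are printed here because they show a feature that the choice of genes did not use. Each line gives 30 bases of GRCm38 read from the edge into the peak, from the odd list. Capitals mark an 8-base word that recurs at the edges of other peaks, as described further on.
Commd8, chr5:72168315-72168344, plus strand: ttttttccctctttttTTTTGGGGgggggg
Vps29, chr5:122353845-122353874, plus strand: tcaagtattATTTCCCCccttgaattctct
Tbc1d14, chr5:36593568-36593597, minus strand: tttttttttttttttttTTTTGGGGgggga
Ubfd1, chr7:122067093-122067122, minus strand: attggttggagtgattttTTTCCCCCccgc
Col6a4, chr9:106097026-106097055, minus strand: ttgtgatgatTTTCCCCCcccttcggagtt
Nup214, chr2:31972437-31972466, minus strand: gctggGAGTGATTccccagtagacataaat
In each of them a run of T or a TT stands directly before a run of C or of G.

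Peaks of both lists lay at nearly the same bases at all 6 genes. Their starts differed by 0 to 3 bp and their ends by 0 or 1 bp between the lists. The summit was at the same base at 5 genes and 1 bp apart at Col6a4. At Tbc1d14 and Nup214 the odd and the even peak were the same interval. Such closeness was not particular to these genes, since the 6 other protein-coding genes that met the rule had it too. Among those, Pgrmc2 had the same interval in both lists. Their widest gap was at the peak shared by Cfap52 and Stx8, which started at 67965710 (odd) and 67965714 (even) and ended at the same base. In 5 of 6 genes the centre of the peak lay within 500 bp of the start, and the centres were at a median of 226.75 bp upstream (odd) and 226.25 bp upstream (even). Nup214 was the exception, with a centre 2044 bp upstream. A centre within 500 bp was also found at 4 of the 6 other protein-coding genes that met the rule, and at 11 of 20 protein-coding genes with an odd promoter peak and 16 of 25 with an even one. The map of peaks against gene starts shows these positions with the genes that overlap them.

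**Figure D1:**
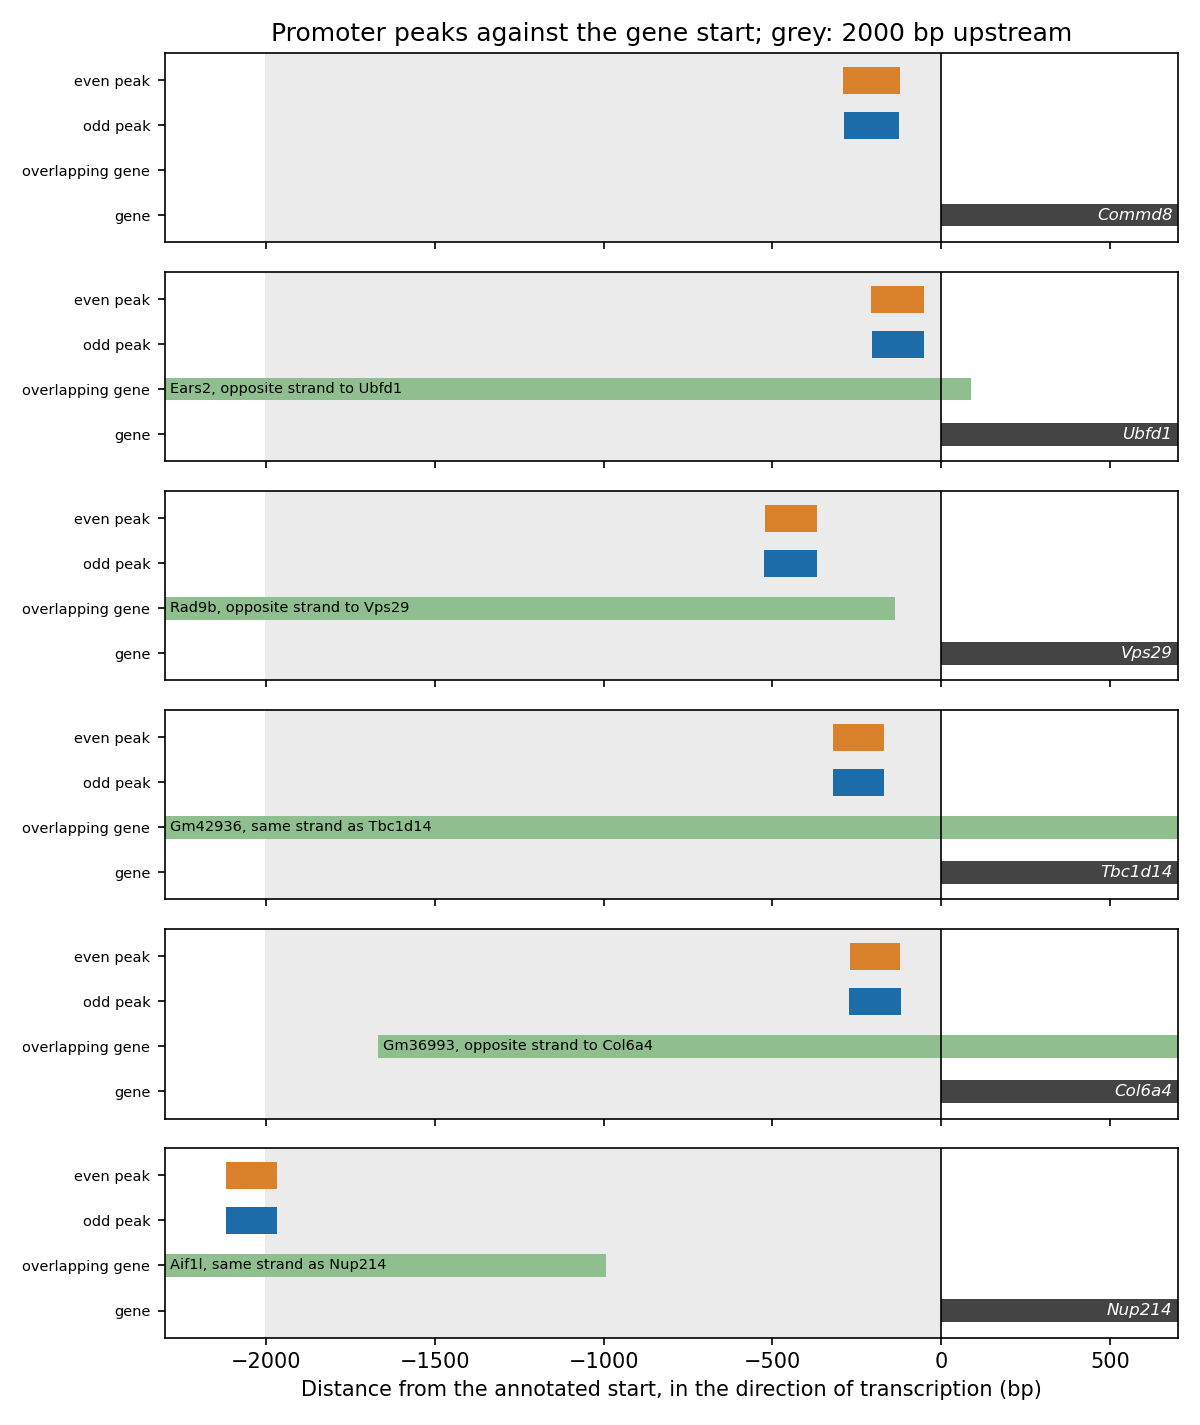
Position of the odd peak (blue) and even peak (orange) at each of the 6 genes, in bp from the annotated start along the direction of transcription, with the gene in dark grey, any other gene over the peak in green and the 2000 bp upstream shaded. The peak centres of 5 genes sit within 500 bp of the start. The peak of Nup214 straddles the far limit of the window, with its centre outside. At 5 genes another annotated gene covers the peak.

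Commd8 and Vps29 belong to the machinery that sorts membrane proteins at endosomes. Commd8 (ENSMUSG00000029213.11) is a COMM-domain subunit of the Commander complex and lies on the minus strand of chromosome 5, from 72156575 to 72168189. Its odd peak ran from 72168315 to 72168478 (164 bp) and its even peak from 72168312 to 72168479 (168 bp), with the summit 185 bp upstream of the start in both. No other annotated gene covered it, which sets Commd8 apart from the other 5 genes. The nearest gene lying wholly upstream was the processed pseudogene Gm42569, 3628 bp from the start of Commd8.

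Commd8 had the highest pileup of the 6 genes in both lists. It reached 12 tags with odd probes (exact Poisson 95% interval 6.20 to 21.0) and 17 with even probes (9.90 to 27.2). Only 7 odd peaks and 2 even peaks were higher anywhere in the genome. The odd peak is printed whole, on the minus strand on which the gene is transcribed, as the peak of highest pileup and because a long run of 1 base stands beside the recurring word.
Commd8, chr5:72168315-72168478, minus strand: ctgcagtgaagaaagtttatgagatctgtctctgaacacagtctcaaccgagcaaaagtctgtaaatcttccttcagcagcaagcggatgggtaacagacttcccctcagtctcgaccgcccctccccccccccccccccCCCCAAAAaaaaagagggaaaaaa
The longest run of 1 base in it was 20. Runs of 20 or more were in 45 odd peaks (4.68%) and 67 even peaks (9.38%), so this feature was uncommon in either list.

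Vps29 (ENSMUSG00000029462.18) is a core subunit of both the retromer and the retriever, complexes that return cargo from endosomes. The gene spans 122354369 to 122364984 of chromosome 5, on the plus strand. The odd peak ran from 122353845 to 122353999 (155 bp) and the even peak from 122353848 to 122354000 (153 bp), with centres 447 and 445 bp upstream of the start. Rad9b, a paralogue of the DNA-damage checkpoint gene Rad9, begins at 122354233 on the minus strand, 136 bp from the start of Vps29, so the pair is divergent. The peak fell inside Rad9b, with its centre 311 (odd) and 309 bp (even) downstream of that start. In GENCODE it overlapped an exon of a retained-intron transcript of Rad9b, and RefSeq places it in a Rad9b intron.

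Vps29 had 11 tags with odd probes (5.49 to 19.7) and 8 with even probes (3.45 to 15.8). The odd peak was surpassed by 10 of the 962 odd peaks and the even peak by 28 of the 714 even peaks. Its odd peak is printed whole, on the plus strand, since it carries both the commonest recurring word of the lists and the longest probe match found inside a peak of these genes.
Vps29, chr5:122353845-122353999, plus strand: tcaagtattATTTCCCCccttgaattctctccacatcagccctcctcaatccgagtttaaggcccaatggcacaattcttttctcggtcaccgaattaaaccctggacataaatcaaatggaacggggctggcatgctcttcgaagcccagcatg

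Tbc1d14 (ENSMUSG00000029192.17) encodes a TBC-domain protein that binds Rab11 and takes part in autophagosome formation from recycling endosomes. It occupies the minus strand of chromosome 5 from 36490604 to 36593276. Both peaks ran from 36593447 to 36593597 (151 bp), with the centre 246 bp and the summit 276 bp upstream. Pileup was 7 tags in each list (2.81 to 14.4). The peak was inside an intron of Gm42936, a processed transcript on the same strand, and the nearest gene wholly upstream, D5Ertd579e, was 7209 bp away.

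The promoter call of Tbc1d14 depended on the annotation. The GENCODE start is that of a single protein-coding transcript of 23, and 2 of the 23, itself included, begin within 500 bp of it. RefSeq places the start of the gene at 36586271, from which the centre of the peak is 7251 bp upstream and outside the window. For the other 5 genes the RefSeq start was 0 to 80 bp upstream of the GENCODE start, and their peaks still met the rule. With RefSeq starts, an alternative chosen after seeing the data, 5 of the 6 genes kept a promoter peak in both lists.

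Ubfd1 (ENSMUSG00000030870.12), which encodes a protein with a ubiquitin-like domain, spans 122067175 to 122082194 of chromosome 7, on the plus strand. The odd peak covered 122066969 to 122067122 (154 bp) and the even peak began 1 bp earlier. Their centres were 129.5 and 130 bp upstream, the closest to a start among the 6 genes. Ears2, the mitochondrial glutamyl-tRNA synthetase, runs the other way from 122067263, so that the genes overlap head to head by 89 bp. The peak lay wholly within Ears2 and overlapped exon sequence of it, coding and untranslated. Its centre was 217.5 (odd) and 218 bp (even) downstream of the Ears2 start. RefSeq starts Ubfd1 at 122067095, and from there the inner edge of the peak was at -27 bp on the upstream scale, inside the first exon of Ubfd1.

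Pileup at Ubfd1 was 9 tags with odd probes (4.12 to 17.1) and 11 with even probes (5.49 to 19.7). Among odd peaks 29 were higher and among even peaks 10. Its peak was also the richest in G and C, at 66.9% in the odd list against a median of 42.9% over all odd peaks. The observed number of CpG pairs was 0.992 times that given by its base composition, against a median of 0.145. In the other 5 genes this CpG ratio was 0.331 to 0.611.

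Col6a4 (ENSMUSG00000032572.9) encodes a chain of collagen VI, a microfibril-forming collagen of the extracellular matrix. It lies on the minus strand of chromosome 9 from 105989454 to 106096783. The odd peak ran from 106096904 to 106097055 (152 bp) and the even peak from 106096906 to 106097054 (149 bp), centred 196.5 and 197 bp upstream. Pileup was 8 tags with odd probes (3.45 to 15.8) and 5 with even probes (1.62 to 11.7). GENCODE lists over it a gene of the opposite strand that awaits experimental evidence, Gm36993, from 106095474 to 106098453. That gene begins inside Col6a4, 1309 bp from the Col6a4 start, and the nearest gene wholly upstream, Gm9451, was 24513 bp away.

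Nup214 (ENSMUSG00000001855.15), a nucleoporin of the cytoplasmic face of the nuclear pore, spans 31974436 to 32053975 of chromosome 2, on the plus strand. Both peaks ran from 31972318 to 31972466 (149 bp) and both had 5 tags (1.62 to 11.7). Their nearer edge was 1970 bp upstream of the start, so only 31 bp, or 20.8% of the peak, fell in the window, against 100% at the other 5 genes. The peak lay within Aif1l, toward its 3′ end, and overlapped an exon of it in untranslated sequence. Aif1l encodes an actin-binding protein, runs in the same direction, and ends 994 bp before Nup214 starts. Just outside the window, with peaks of both lists, the nearest protein-coding genes were Cdkn2aip (nearer edge 2523 bp upstream with odd and 2521 bp with even probes), Ccdc122 (2997 and 2998 bp) and Larp1b (3261 and 3259 bp). Larp1b had 7 and 8 tags there, more than Nup214, while Cdkn2aip had 3 and 5.

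Counted over the 6 genes, 5 peaks lay over another annotated gene, 4 over one of its exons, and 3 over a protein-coding neighbour (Ears2, Rad9b and Aif1l). The 6 other genes that met the rule had no peak over another gene. Among all protein-coding genes with an odd promoter peak 6 of 20 had it over another gene (30.0%), and with an even one 8 of 25 (32.0%), the 6 genes included. The stretch 100 to 300 bp upstream of all 21938 protein-coding genes touched another gene in 27.1% and a protein-coding one in 17.1%. Starts of opposite strand within 2000 bp were annotated at 3 genes, Ubfd1, Vps29 and Col6a4, at 2 of the 6 others and at 21.8% of all protein-coding genes. None of the 6 genes had a further peak inside it in either list. The nearest other peak was 146 kb away at Commd8 (even list) and 268 kb or more away at the remaining genes. On chromosome 5 lay 3 of the 6 genes, and 6.03% of odd and 6.02% of even peaks.

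The pileups of the probe sets are set side by side as a description, because both lists chose the genes. The ratio of even to odd pileup was 1.42 at Commd8 (exact 95% interval 0.638 to 3.25) and 1.22 at Ubfd1 (0.460 to 3.34), the genes with more tags with even probes. It was 0.727 at Vps29 (0.254 to 1.99) and 0.625 at Col6a4 (0.161 to 2.17), the genes with fewer. At Tbc1d14 and Nup214 the pileups were equal, with intervals of 0.299 to 3.34 and 0.230 to 4.35. All 6 intervals include 1, and at 5 to 17 tags they are wide enough to include 2-fold differences or nearly so, so they do not show that the sets gave equal signal. The intervals cover counting error only, since there was 1 library per set. They also take tags as independent, which was not tested, so they may understate that error. Pileup counts distinct positions, and length minus pileup was exactly 144 in 86.1% of odd and 83.3% of even peaks. Tag size differed as well, at 105 bp (odd) and 54 bp (even), and cannot be told apart from probe set. Per kept tag the ratios were higher, from 0.698 at Col6a4 to 1.58 at Commd8, and 4 of 6 were then above 1 in place of 2.

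**Figure D2:**
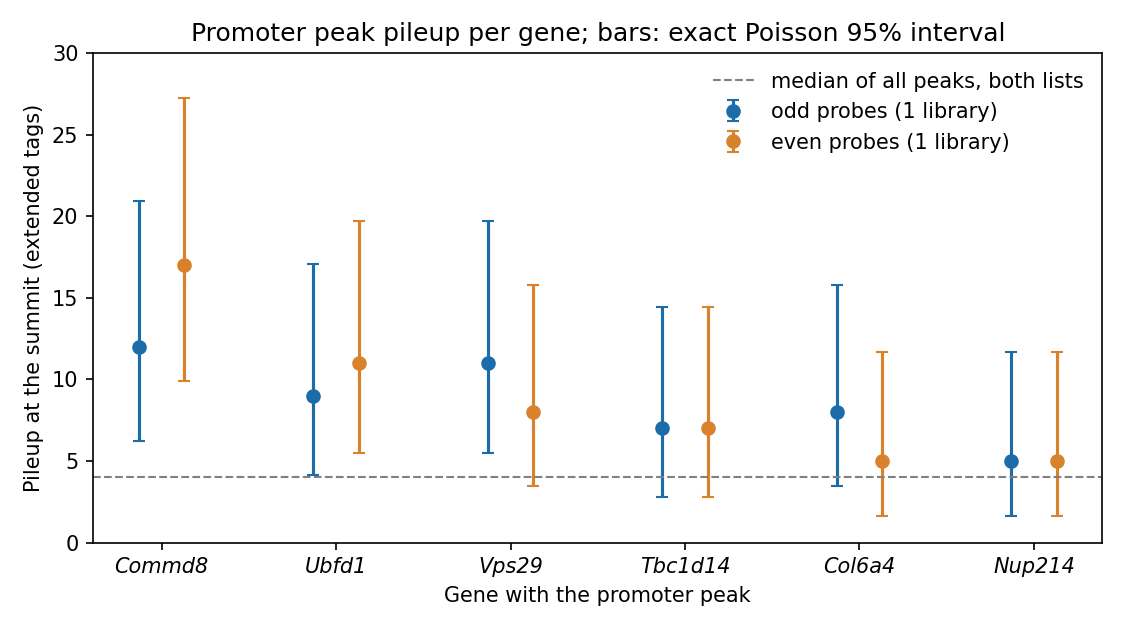
Pileup at the summit, in extended tags, of the promoter peak of each of the 6 genes with odd (blue) and even (orange) probes, 1 library each. Bars are exact Poisson 95% intervals and the dashed line is the median of all peaks, 4 tags in both lists. Commd8 is highest with both sets, at 12 and 17 tags, and the intervals of the sets overlap at every gene.

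The −log10 q value given by the authors' caller followed the pileup. It rests on a background set with an effective genome size of 90000000, a nematode preset, so it serves here to order peaks within a list and not as a measure of confidence. It was highest at Commd8, at 24.5 with odd and 38.8 with even probes, and lowest at Nup214, at 7.62 and 7.81. At Ubfd1 it was 17.1 and 22.5, and at Vps29 21.9 and 14.9. Tbc1d14 had 12.2 and 12.5, and Col6a4 14.6 and 7.81. The order of the genes was therefore not the same with both sets. Vps29 ranked above Ubfd1 with odd probes and below it with even probes. Col6a4 ranked above Tbc1d14 with odd probes and below it with even probes, and tied with Nup214 with even probes only. The pileups behind these changes of order differ by few tags, and their 95% intervals overlap.

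Within the lists the peaks of these genes stood in the upper part. Their median pileup was 8.5 tags (odd, range 5 to 12) and 7.5 tags (even, range 5 to 17). The 6 other protein-coding genes that met the same rule, Cfap52, Stx8, Gm29797, Pgrmc2, Rnf180 and Snrpb, had medians of 5 tags (3 to 6) and 3 tags (3 to 5). Cfap52 and Stx8, a cilium gene and an endosomal SNARE gene, share 1 peak of 5 and 3 tags. Pgrmc2 had 3 tags in both lists, and Snrpb, a core protein of the spliceosome, 3 and 4. The lowest of the genes described here, Nup214, was thus within the range of these others, while Commd8, Ubfd1, Vps29 and Tbc1d14 were above it in both lists. These heights were known when the genes were chosen, and no test was made of them. Col6a4 was above the others with odd probes but equal to their highest with even probes.

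**Figure D3:**
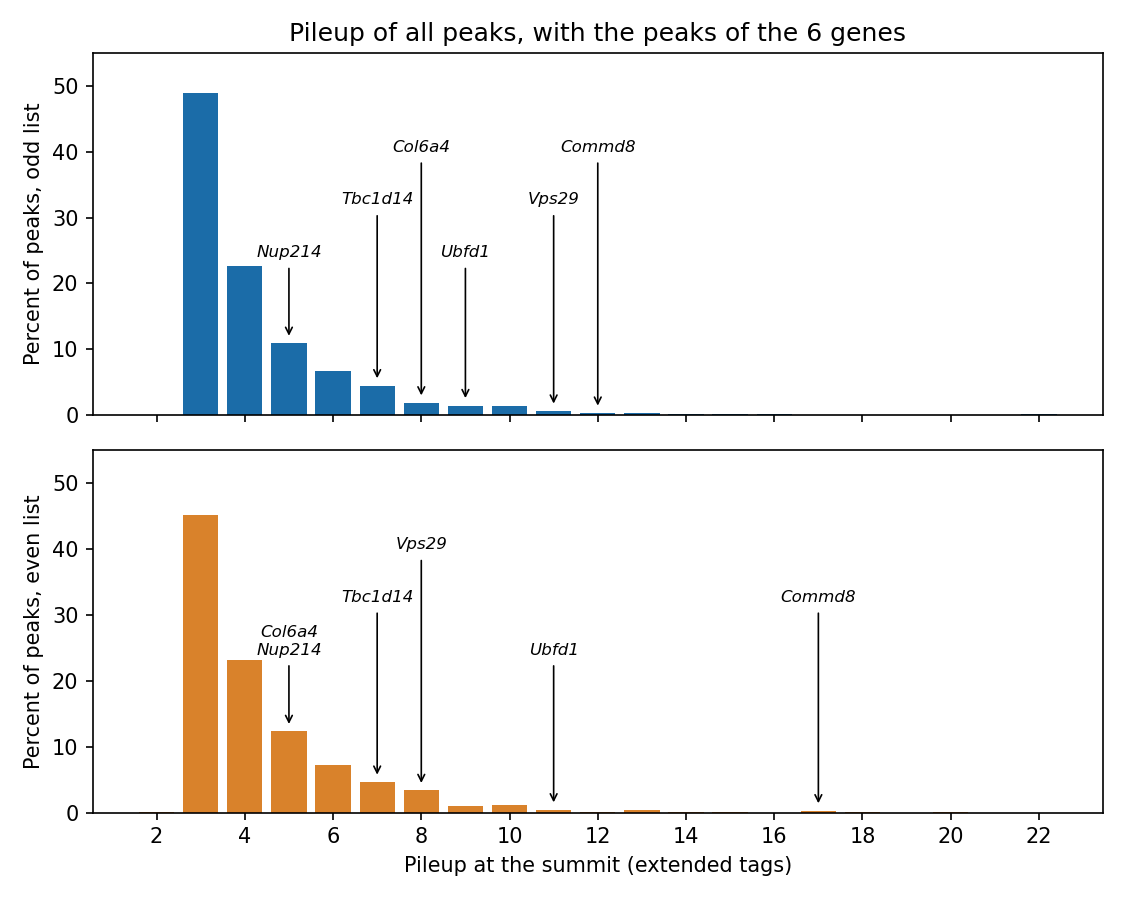
Percent of peaks (vertical axis) at each pileup at the summit in extended tags (horizontal axis), for the odd list (blue) and the even list (orange), with arrows at the peaks of the 6 genes. All 6 genes lie to the right of the median of 4 tags, from Nup214 at 5 tags in both lists to Commd8 at 12 and 17.

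In share of the list, 1.04% of odd and 0.560% of even peaks were at least as high as that of Commd8. At Nup214 the shares were 28.4% and 31.5%, so a peak of its height was common. Together the summits of the 6 genes held 52 odd and 53 even tags, 0.366% and 0.417% of kept tags.

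Peak length was tied to pileup. Length minus pileup was exactly 144 in 828 of 962 odd peaks (86.1%) and in 595 of 714 even peaks (83.3%), so that each further tag went with 1 further base. Among the genes described here this held for 4 of 6 in each list: Tbc1d14, Col6a4 and Nup214 in both, Vps29 in the odd list and Ubfd1 in the even list. Ubfd1 (odd) and Vps29 (even) missed it by 1, at 145. Commd8 differed, with 152 and 151.

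Sequence at the edges was compared with all other peaks of the same list. By the rule used, a recurring word was 8 bases long, lay within 10 bp of an edge, stood at an edge of at least 10 other peaks, and did so at least 20 times more often than in promoter windows of the same length. On these terms 1 of the 6 genes carried one in both lists, Nup214, against 21.6% of all odd and 28.4% of all even peaks. Its word, TGGGAGTG, was at an edge of 24 of 956 other odd peaks (2.51%) and 19 of 708 other even peaks (2.68%). Counted by edge, of which a peak has a pair, this was 1.26% and 1.34% of edges, against 0.0435% of promoter windows. With 7 or 10 bases, 5 bp either side, 20 peaks or 50 times, no gene had one in both lists.

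A window that takes the first 30 bases inside the edge, chosen after the sequences had been seen, gave other counts. Where several recurring words stood at an edge, the one shared with the most other peaks is given. All 6 genes then had a recurring word in both lists, but so did 911 of 962 odd peaks (94.7%) and 648 of 714 even peaks (90.8%), so the 6 genes were like most peaks in this. In either window the words were picked from the other peaks, with the 6 genes left out. The shares of all peaks with a word are therefore partly fixed by that choice. TTTCCCCC, the word of Ubfd1 and Col6a4, was at an edge of 285 of 956 other odd peaks (29.8%) and of 211 of 708 other even peaks (29.8%). That is 14.9% of edges in each list, against 0.0876% of promoter windows. ATTTCCCC, found at Vps29, was the commonest word of all, in 369 (38.6%) and 245 (34.6%) other peaks. TTTTGGGG, found at Commd8 and Tbc1d14 in the odd list, was in 90 (9.41%), and GAGTGATT, found at Nup214, in 138 (14.4%) odd and 119 (16.8%) even peaks.

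In the even list the words of Commd8 and Tbc1d14 were others, though the edges were nearly or wholly the same bases. The even edges are shown because the word shared with the most peaks depends on the list, again with capitals for the word.
Commd8, even list, chr5:72168312-72168341, plus strand: gtttTTTTTCCCtctttttttttggggggg
Tbc1d14, even list, chr5:36593568-36593597, minus strand: tttttttttttttttttttttGGGGGGGGa
At both genes a long run of T is followed by a run of G. At Commd8 a run of T followed by C stands nearer the edge, in the marked word TTTTTCCC. The edges of the other 4 genes have T followed by C.

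**Figure D4:**
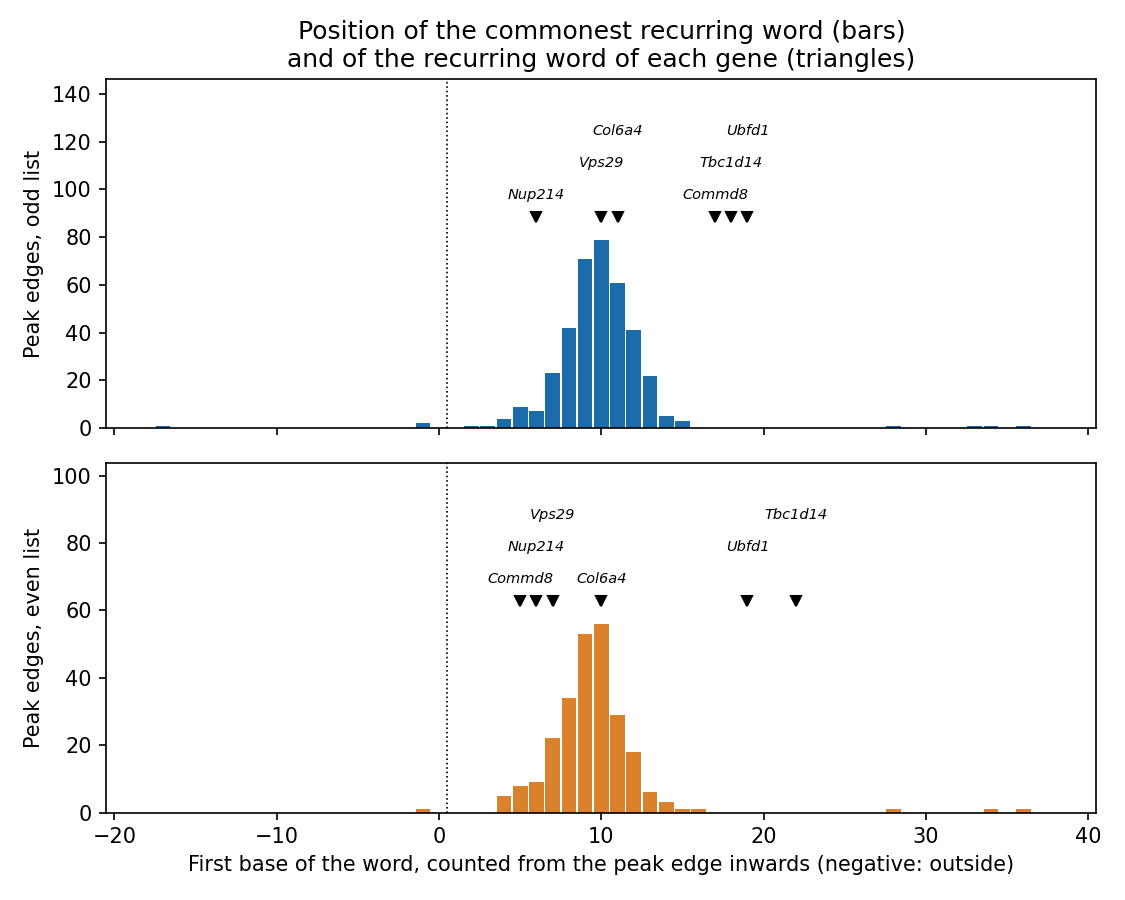
Number of peak edges at which the commonest word, ATTTCCCC, begins at each base counted inwards from the edge, in the odd (top) and even (bottom) list. Triangles mark where the recurring word of each of the 6 genes, which is another word except at Vps29, begins. The commonest position is base 10 in both lists, while the 6 genes spread from base 6 (Nup214) to 19 (Ubfd1) in the odd list and from base 5 (Commd8) to 22 (Tbc1d14) in the even list.

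The commonest word stood within a narrow range of distances from the edge. Of 376 odd occurrences of ATTTCCCC near an edge 369 began at bases 1 to 16 inside it, and of 249 even ones 245 did. At Vps29 it began at base 10 (odd) and 7 (even). The words of the other genes were less uniform: that of Col6a4 began at base 11 and 10, of Nup214 at 6 in both lists, of Commd8 at 17 and 5, of Tbc1d14 at 18 and 22, and of Ubfd1 at 19 in both. The shorter pattern of TTCCCC or TTGGGG, also chosen after seeing the sequences, was in the first 30 bases at 1 edge of the peak in all 6 genes and in both lists, and at the opposite edge in none. Among other peaks 79.2% (odd) and 76.3% (even) had it at 1 edge or both. By edge it was in 40.4% and 38.7%, against 1.95% of promoter windows. Read into the peak, the edge ran in the direction of transcription at Vps29, Tbc1d14 and Col6a4 and against it at Commd8, Ubfd1 and Nup214.

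Bases before the word also recurred. In the other peaks with ATTTCCCC, the base directly before it was G in 76.2% (odd) and 80.4% (even), the next one out was T in 64.8% and 72.7%, and the next G in 53.1% and 64.1%. With the commonest odd-list bases further out, this gives the 14-base run ggggtgatttcccc. Col6a4 and Nup214 matched 11 of its 14 bases, Vps29 10 and Ubfd1 9, in both lists. Tbc1d14 matched 6 and Commd8 5 (odd) and 7 (even). At Tbc1d14 in both lists and Commd8 in the odd list, these are values of the edge opposite the recurring word. The edge with the word matched 4 there. The median was 10 in the other peaks of each list, taking the better edge, and 6 in single windows of 30 bases from promoters. Tbc1d14 and Commd8 matched this run less well than most other peaks. At least as many bases were matched by 97.3% and 99.6% of other odd peaks, and by 96.2% and 87.3% of other even peaks. The run was drawn from other peaks that hold ATTTCCCC, and those peaks are among the ones scored. The median of 10 and the shares of other peaks are therefore partly fixed by how the run was made.

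Other features of the peaks varied among the 6 genes. GC content in the odd list ran from 38.8% at Col6a4 through 47.0% at Nup214, 47.7% at Vps29, 51.8% at Commd8 and 53.6% at Tbc1d14 to the 66.9% of Ubfd1. The longest run of 1 base was 21 at Tbc1d14 and 20 at Commd8, and 4 to 8 at the other genes, with medians of 5 (odd) and 6 (even) over all peaks. Masked repeats made up 47.0% of the Tbc1d14 peak, 30.5% of that of Commd8 and none of that of Nup214. The stretch of 1 tag length from the edge with the word occurred at exactly 1 place in the assembled chromosomes at all 6 genes, for 105 bases (odd) and 54 bases (even).

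Similarity to the probes was low. Within 100 bp of the peaks, the longest exact match to any of the 18 probes was 11 bases at Vps29 and Col6a4, 9 at Nup214 and 8 at Commd8, Ubfd1 and Tbc1d14. The median over all peaks was 9 in both lists, and full matches of 20 bases were near 8 peaks in each list. A match at least as long as those of Vps29 and Col6a4 was within 100 bp of 9.67% of odd and 9.24% of even peaks. At Vps29 the match lay in the peak, next to the recurring word, and 7.28% of odd and 6.72% of even peaks had one as long inside them. Probe and genome are shown with the matched bases in capitals.
odd probe 3: CTTGAATTCTCaatggccac
Vps29, chr5:122353859-122353877, plus strand: ccccCTTGAATTCTCtcca
The probe belongs to the odd set, and the peak had 11 tags with odd and 8 with even probes. Whether the match played a part in either peak was not tested. At Col6a4 the match of 11 bases was to an even probe and lay outside the peak, and within the peak the longest was 7.

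Lists of the families and complexes of the 6 genes held 115 genes, of which 109 are not among the 6. Of these 109, 1 had a peak in the gene or its promoter in either list (0.917%), and over all protein-coding genes 2.49% had such a peak, so the relatives did not stand out from that background. It was Tbc1d5, a retromer-associated regulator of Rab7 on the TBC-domain list of 30, whose odd peak of 3 tags lay in an intron (chromosome 17, 50834886 to 50835032). In the list of 19 Commander, retriever and retromer subunits Commd8 and Vps29 were the only genes with a peak. No other nucleoporin of 30, collagen VI gene of 6 or listed ubiquitin-like gene of 30 had one.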

How the data were processed

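Per the labels' protocols, precipitated C2C12 chromatin was sheared to 50 to 130 bp and unprecipitated DNA to a mean of 400 bp, and the libraries were read on a PGM sequencer, with TMAP placing reads on mm10. The authors called peaks per probe set with MACS2 2.1 (version per the submitters' processing notes) against unprecipitated DNA. Per the file headers, the q cutoff was 0.05, tags were extended to 147 bp, 1 tag was kept per position and the effective genome size was 90000000, the caller's preset for a nematode. The deposited lists give a pileup (signal in extended tags), −log10 p and q values, and fold enrichment (a ratio to background). Here, positions were set against GENCODE release 21 and RefSeq on GRCm38 with Python 3.11.15, pysam 0.24.0 and SciPy 1.17.1, and figures used matplotlib 3.10.9. Edge words, promoter overlap and probe matches were tested on simulated data. Intervals are exact, at 95%, cover counting error only and take tags as independent, which was not tested. The pileup ratio used the Clopper-Pearson interval of the split of tags. Words were compared with the 2000 bp promoters of 21938 protein-coding genes. No test between samples was possible with 1 sample per probe set. The 6 genes, the other genes meeting the same rule, overlapping or divergent neighbours and family members with a peak are named. Members and lists were chosen with earlier results of these data known. Alternatives changed the promoter window, overlap, gene starts, q cutoff, scaling, neighbour type, word settings, flanks and family window.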

Additional observations from a re-analysis of the deposited data

How the results depend on the processing

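The count of 6 genes fell to 5 with a promoter of 1000 bp, with the summit in the window, or with 50% of the peak in it, Nup214 being lost each time. It also fell to 5 with RefSeq starts, where Tbc1d14 was lost. Protein-coding genes with promoter peaks in both lists numbered 12, and 24 with promoters of 5000 bp or 21 with all transcript starts. Genes with more signal from even probes numbered 2 by pileup and 4 per 10000 kept tags or by fold enrichment, since Tbc1d14 and Nup214 had equal pileups. Peaks over another gene numbered 5, and 3 with protein-coding neighbours only. Genes with a recurring edge word in both lists numbered 1, and 0 with 7 bases, 10 bases, 5 bp either side, 20 peaks or 50 times, but 6 in the first 30 bases inside the edge, a window chosen after seeing the data. Leaving aside the RefSeq starts and the 30-base window, 19 of 29 alternatives kept the value close to that reported, and 10 moved it. No paired analysis was possible because each probe set has 1 sample and no result comes from a test. Pileups of 5 to 17 tags, 1 library per set and unlike tag sizes limit what can be said of probe differences. RNA levels and control probes were not analysed here.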
